A study of Mus musculus with 2 samples.

Results

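Cells carrying MHC class II transcripts were examined in single-cell mRNA sequencing (scRNA-Seq) libraries of murine bone marrow-derived monocytes (BMDMs) induced toward osteoclasts (OCs), the cells that resorb bone. A cell was a member when the UMIs of Cd74, H2-Aa, H2-Ab1 and H2-Eb1 summed to at least 10 and made up at least 0.1% of all its UMIs, while S100a8 and S100a9 together stayed below 5%. A UMI is a molecular tag that lets each captured mRNA be counted once. Of 11932 cells kept in all, 110 were members. The mutant library held 97 of them among 5663 cells (1.71%, 1.39 to 2.09) and the control library 13 among 6269 cells (0.207%, 0.110 to 0.354). Every interval given here in parentheses is a 95% exact interval for counting error only.

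Both cultures received RANKL at 100 ng/ml and M-CSF at 50 ng/ml, the cytokine pair that drives OC formation. The groups were CONTROL and LysM-Cre;Arid1afl/fl, called the mutant from here on, in which Cre is driven by the lysozyme M (Lyz2) promoter and deletes floxed Arid1a, which encodes a DNA-binding part of the BAF chromatin remodeler, only where that promoter has been active. The labels give neither the alleles of the control nor age, sex or number of animals. Each genotype was 1 library, so no difference between them has a replicate check, no p-value is given, and genotype, culture and library cannot be told apart.

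MHC class II molecules are heterodimers of an alpha and a beta chain that carry peptides from the endosomal pathway to the cell surface for recognition by CD4+ T cells. Their genes, with that of the invariant chain Cd74, share promoter elements and are switched on together by the transactivator Ciita. Dendritic cells and B cells express them steadily, whereas monocytes and macrophages do so at low levels unless stimulated, for example by interferon gamma.

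Proximal promoters of this gene family are shown because its members share these elements. The table used holds H2-Aa and H2-Eb1 of the rule genes, and those of H2-Ab1, Cd74 and Ciita were not examined. In the RefSeq promoter table (GRCm38.p6), GCAAC, the core of the X box, was followed within 20 to 32 bases by ATTGG, which is CCAAT on the opposite strand and the core of the Y box, in the entries of H2-Aa, H2-Eb1, H2-Eb2, H2-Oa and H2-Ob. Capitals mark the 5-base cores in the lines that follow, written 5′ to 3′ on the strand of the gene and placed by exact match in GRCm39.
H2-Aa (chr17:34506826-34506893, minus strand): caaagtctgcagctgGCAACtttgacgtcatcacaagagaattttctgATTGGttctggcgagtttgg
H2-Eb1 (chr17:34524735-34524801, plus strand): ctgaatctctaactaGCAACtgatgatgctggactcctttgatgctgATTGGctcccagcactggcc
H2-Eb2 (chr17:34544502-34544568, plus strand): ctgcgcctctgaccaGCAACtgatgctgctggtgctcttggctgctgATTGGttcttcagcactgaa
H2-Oa (chr17:34311262-34311329, plus strand): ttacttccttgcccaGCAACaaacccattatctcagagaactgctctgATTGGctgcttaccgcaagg
H2-Ob (chr17:34457777-34457841, plus strand): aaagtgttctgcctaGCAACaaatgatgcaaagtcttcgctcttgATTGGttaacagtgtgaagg
The spacing was chosen after these entries had been read, and the pair in this order on either strand was held by 226 of 32851 promoters in the table (0.688%). GCAAC, with or without the other, was in 35.2% of them and CCAAT likewise in 37.4%, counting both strands. The entries of H2-DMa, H2-DMb1 and H2-DMb2 did not hold the pair. A match is a description of these letters and not of a bound site.

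The control library held 6455 barcodes and 164004706 UMIs, and the mutant library 5865 barcodes and 131800059 UMIs. Members were shallower than the rest, with a median of 14274 UMIs and 3407 genes against 21828 UMIs and 4302 genes in the mutant library, and of 19308 against 23978 UMIs in the control. Of the barcodes, 8 occurred in both libraries and 0 of these were members. A doublet score took 2 of the 97 mutant members (2.06%) and 4.90% of the other mutant cells. The limit on S100a8 and S100a9 left out 0 cells that met the class II minimums.

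The 4 transcripts that chose the cells were spread very unevenly over them. Across mutant members the class II share ran from 0.101% to 8.71% with a median of 0.238%, and in 63 of the 97 it was below 0.5%, while in 5 it exceeded 5%. Across the 13 control members it ran from 0.116% to 3.88% with a median of 0.401%. The mutant members just inside the limit held 23 UMIs (0.1009%) and 13 UMIs (0.1009%), those just outside 33 UMIs (0.0995%) and 31 UMIs (0.0980%). A further 16 mutant cells had the share but fewer than 10 UMIs, the highest of them 9 UMIs at 0.680%, and 49 had the UMIs but not the share. Members contributed 74.2% of the class II UMIs of the mutant library and 33.0% of those of the control.

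**Figure D1:**
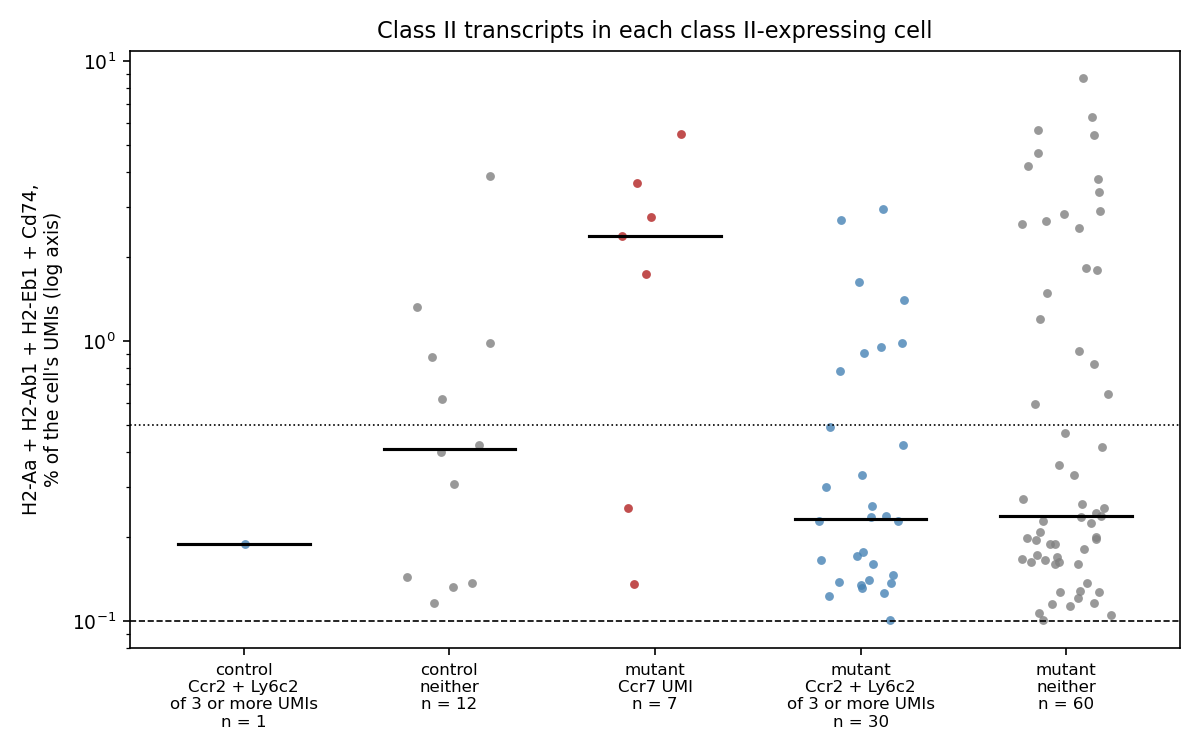
Class II UMIs as a percentage of all UMIs in each member (points, log axis), split by library and by Ccr7, Ccr2 and Ly6c2 UMIs, with the median as a bar. The dashed line is the limit of the rule (0.1%) and the dotted line 0.5%, above which lie 34 of 97 mutant and 5 of 13 control members.

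The balance among the 4 transcripts changed along this range. H2-Aa (chr17:34493404-34506798) and H2-Eb1 (chr17:34504236-34535648) encode an alpha and a beta chain, H2-Ab1 (chr17:34476663-34488393) the beta chain partner of H2-Aa, and Cd74, on chromosome 18, the invariant chain that fills the peptide groove until the endosome. The annotated spans of H2-Aa and H2-Eb1 overlap on opposite strands. The H2-Eb1 promoter shown above, however, lies inside the H2-Eb1 span and past the end of H2-Aa. Cd74 gave 45.7% of the class II UMIs in mutant members, 40.9% in the 34 members of at least 0.5%, 63.4% in the 63 below that and 82.3% in the other mutant cells. All 4 transcripts were found together in 70 of the 97 mutant members, in 34 of the 34 with at least 0.5% and in 12 of the 13 control members. Cd74 was the only one of the 4 in 5 mutant members. Cells that carry S100a8 and S100a9, the calprotectin genes of neutrophils, served as a background for free RNA: their class II level was 6.51 CPM (UMIs per 1000000 UMIs of the set, 2.39 to 14.2) over 83 mutant cells, against 30.3 CPM (29.3 to 31.2) in all other mutant cells and 6889 CPM (6763 to 7017) in members. In the control library the 16 such cells had 0 class II UMIs, which allows up to 22.98 CPM.

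Genes of the class II pathway that the rule had not used were next compared with the other 5566 cells of the mutant library. Across all 5231 genes whose mean over both sets reached 20 CPM, 2.66% were higher in members by more than 2-fold (log2 ratio above 1), 1.59% were lower by as much (4.24% in either direction), and the median log2 ratio was -0.07. Of 12 listed presentation genes 7 passed that level, of which 4 were higher past this limit, 1 was lower and 2 lay within it (median 1.13, 1.12 to 2.54 over the alternative settings). Cells were chosen by expression here, so these values describe the chosen cells and are not a test.

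Ciita, the transactivator of the class, was detected in 18 of 97 members with 38 UMIs, or 23.2 CPM (16.4 to 31.8), against 0.0539 CPM in the other cells, a log2 ratio of 8.75 (7.57 to 10.16). Its gene (chr16:10297923-10347694, GRCm39) overlaps Dexi on the opposite strand, and whether counting used the strand was not stated. With every cell thinned to 5000 UMIs, Ciita was found in 15.4% of members (8.67 to 24.5, n = 91) and in 0.0575% of other cells (0.0119 to 0.168, n = 5221), and in 0 of 70 thinned S100a8 and S100a9 cells, which allows up to 3 of 70 (4.29%). The unthinned shares of the same cells were 19.8% and 0.115%. The factors that bind next to Ciita at class II promoters showed no such difference: Rfxap stood at 31.7 and 33.2 CPM, Creb1 at 26.2 and 27.9 CPM, and Nfya at 30.5 and 43.9 CPM in members and others. Irf1, an interferon-induced activator of Ciita, had a log2 ratio of 1.10 (0.78 to 1.41).

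The peptide exchange factors were high with the class II chains. H2-DMa, which with a DMb chain removes the invariant chain remnant from the groove, was at 121 CPM in members and 9.10 CPM in others (log2 ratio 3.74, 3.51 to 3.96) and was found in 69 of 97 members. It overlaps Brd2 on the opposite strand. H2-DMb1 was at 120 and 14.6 CPM (3.03, 2.81 to 3.24). H2-Oa, a chain of the DM inhibitor DO, was at 21.4 and 0.539 CPM (5.31, 4.68 to 5.91), whereas its partner H2-Ob had 2 UMIs in 1 member. H2-Eb2, a further beta chain whose promoter holds the pair shown above, was found in 10 members at 18.3 CPM against 0.0308 CPM (9.21, 7.71 to 11.18).

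The endosomal enzymes of the pathway did not move as one. Ifi30, the thiol reductase that unfolds endocytosed proteins, was at 550 CPM in members and 162 CPM in others (1.76, 1.67 to 1.86). Ctss, the protease that trims Cd74, was nearly level at 2938 and 2713 CPM (0.11, 0.07 to 0.16). Ctsl, a related protease, was at 2431 and 5419 CPM (-1.16, -1.20 to -1.11). Marchf1, a ubiquitin ligase that shortens the stay of class II at the surface, was at 42.7 and 19.6 CPM (1.13, 0.76 to 1.47).

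Within the members some of these genes followed the class II share, which had also chosen the cells. Ciita was at 79.3 CPM in the 34 mutant members of at least 0.5% and at 5.61 CPM in the 63 below, with a log2 ratio of 3.82, where 3.53% of 5066 genes were higher past a log2 ratio of 1 and 5.45% lower (8.98% in either direction). H2-DMa was at 343 and 52.1 CPM (2.72), H2-Oa at 69.1 and 6.41 CPM (3.43) and Ifi30 at 950 and 425 CPM (1.16). Ctss was level again, at 2982 and 2924 CPM. Of the 63, Ciita was found in 5, and of the 34 in 13. Of 10 presentation genes that passed in this split, 6 were higher past the limit, 3 lay within it and 1 was lower (median 1.15). Of 7 class II transcription genes, 1 was higher and 6 lay within (median 0.01).

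Cells that missed the rule were binned by class II share to see where these differences began. In the 51 mutant cells at 0.05 to 0.1%, which were not members, Ccr2, the receptor that brings monocytes out of the marrow, was at 131 CPM (3.43 CPM in the 3810 cells without a class II UMI) and thus at the 128 and 146 CPM of the 2 member bins. Lsp1, an actin-binding protein of leukocytes, was higher in every bin from 0.01% upward, with 159, 344, 505 and 1259 CPM. Il4i1, a secreted amino acid oxidase, stood at 15.1, 54.2, 119 and 317 CPM over the same bins. Gpnmb, a glycoprotein of mature macrophages, was at 2599 CPM in cells without class II UMIs, 1568 CPM at 0.01 to 0.05%, 1733 CPM at 0.05 to 0.1% and 929 and 427 CPM in the member bins. Ciita was at 2.41 CPM in the 51 cells. Cells just under the limit of the rule were thus already apart from cells without class II UMIs in Ccr2, Lsp1, Il4i1 and Gpnmb.

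**Figure D2:**
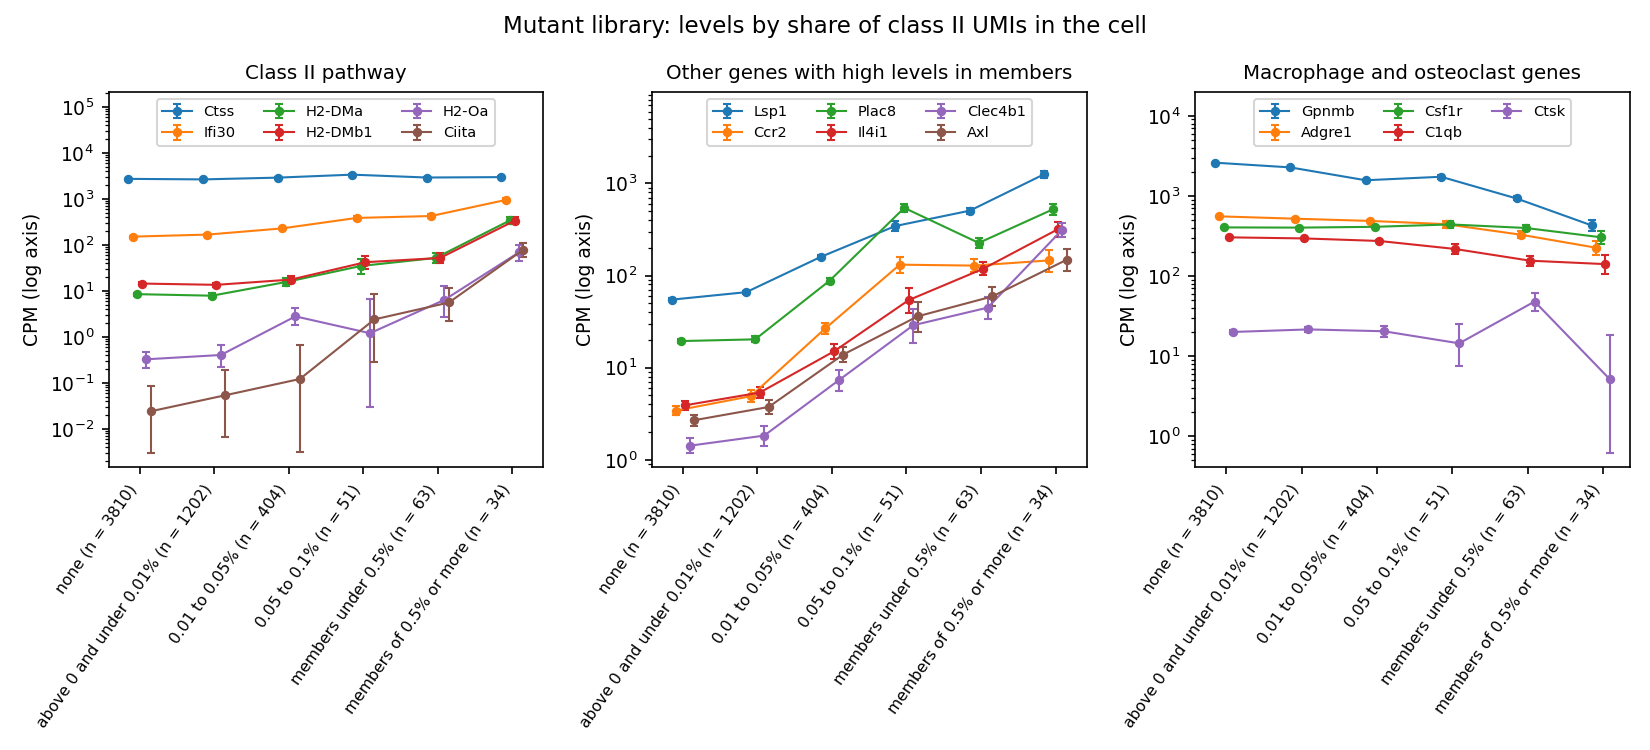
Level in CPM (log axis, 95% Poisson interval) of class II pathway genes (left), of other genes with high levels in members (middle) and of macrophage and OC genes (right) over 6 bins of class II share in the mutant library. Ciita and H2-DMa are highest in the last bin, Ccr2 is already at its member level at 0.05 to 0.1%, and Gpnmb is lower at each step from there.

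The working name of these cells was monocytic, and it was checked against a list of 15 classical monocyte markers, of which 14 were in the gene table. Of these, 12 had a UMI in mutant members, 8 passed 20 CPM, 4 of these were higher by more than 2-fold, 1 was lower and 3 lay within (median 1.10, 0.95 to 2.04 over the alternatives). Without the 83 S100a8 and S100a9 cells among the others, which carry much Ly6c2 and Chil3, 7 passed, 4 were higher and 0 lower (median 2.04). Ccr2 was at 132 CPM in members and 6.33 CPM in others (4.39, 4.16 to 4.60) and in 40 of 97 members. Plac8 was at 297 and 38.2 CPM (2.96, 2.82 to 3.09) but in 28 members only, and Ms4a4c, a membrane-spanning protein, at 467 and 113 CPM (2.04, 1.94 to 2.15) in 89 members.

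Ly6c2, which defines classical monocytes of the mouse, was found in 7 of 97 members with 99 UMIs, 48 of them in 1 cell. Its log2 ratio of 1.43 (1.12 to 1.72) was 0.48 without that cell. Of the 2913 Ly6c2 UMIs in the other cells, however, 1985 lay in the 83 S100a8 and S100a9 cells, and without these the others stood at 7.199 CPM and the ratio at 3.07 (2.75 to 3.37). The level in members was 28.2 CPM at 0.5% of class II or more and 70.5 CPM below. Fn1 and Cd177 had 0 UMIs in members and Chil3 had 1. Hp had 13 UMIs in 2 cells. Of 12 non-classical markers 3 passed 20 CPM, 0 were higher and 1 was lower past the limit (median -0.47, -1.12 to -0.02 over the alternatives), with Cx3cr1 at -0.47 (-0.66 to -0.28). Below that level Spn, Treml4 and Adgre4 had log2 ratios of 1.67, 2.45 and 3.56. The markers thus hold for some members and not for others, and the cells are called class II-expressing cells in the rest of the text.

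To see how the members differ among themselves, they were split by Ccr7, the receptor that guides dendritic cells to lymph nodes, and by at least 3 UMIs of Ccr2 and Ly6c2 together. These gates were chosen after their values had been seen. In the mutant library 7 members had a Ccr7 UMI, 30 passed the Ccr2 and Ly6c2 gate and 60 passed neither. Ccr7 was listed with 31 UMIs in these 7 cells and with 0 UMIs in the 5566 other mutant cells and in the whole control library after filtering, so its level in members (18.9 CPM) was at least 818-fold higher than the floor of 3 UMIs in the others.

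The 7 cells shared much more than Ccr7. Csf1r, the M-CSF receptor on which the culture depends, had 0 UMIs in all 7 against a UMI in 28 of 30 and 59 of 60 cells of the other gates. Apol7c, an apolipoprotein L, was in 7 of 7 with 135 UMIs and in 2 of the other 90 members with 2 UMIs. Il4i1, which overlaps Atf5 and Tbc1d17 on the opposite strand, was in 7 of 7 (1660 CPM, against 5.47 CPM in other cells), and Fscn1, an actin bundler of mature dendritic cells, in 5 of 7, in 0 of the other 90. Ccl22, a chemokine ligand of Ccr4, was in 5 of 7 at 1316 CPM and in 8 of the other 90. Relb, a NF-kB subunit, stood at 418 CPM against 27.1 CPM in other cells.

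Cell by cell the 7 were not alike. The first 5 by class II share held 5.51%, 3.66%, 2.78%, 2.38% and 1.73% and had 0 UMIs of Gpnmb, C1qb and Acp5, a set of macrophage and OC genes. The remaining 2 held 0.252% and 0.135% of class II UMIs, had 24593 and 19219 UMIs in total, and carried 34 and 11 UMIs of Gpnmb and 19 and 18 of Acp5 beside 5 and 32 of Apol7c. Neither scored as a doublet, and whether they hold RNA of a pair of cells was not tested. Lyz2, whose promoter drives Cre, was at 529 CPM in the 7 cells and at 5444 CPM in other mutant cells, and Arid1a was counted with 1 UMI there.

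The 30 cells of the Ccr2 and Ly6c2 gate kept Csf1r (381 CPM) and Adgre1, the F4/80 antigen (322 CPM), and 21 of them carried Plac8. Ciita was found in 3 of the 30, among them the single member with Siglech UMIs. Gpnmb, at 74.3 CPM (51.2 to 104), lay far below the 1121 CPM (1060 to 1185) of the 60 cells in neither gate, and Itgax, the integrin CD11c, was at 60.8 CPM (40.1 to 88.5) against 25.1 CPM (16.7 to 36.3). H2-Oa had 0 UMIs in them, which allows up to 6.76 CPM, against 148 CPM in the Ccr7 cells and 20.6 CPM in the 60. Ly6c2 was found in 5 of the 30, so the gate was met mostly through Ccr2.

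All 97 members were also set against the 131 other mutant cells that pass the same Ccr2 and Ly6c2 gate without being members, S100a8 and S100a9 cells left out. Between the sets, 1.24% of 5165 genes were higher in members past a log2 ratio of 1 and 0.91% were lower. The presentation list had 3 genes higher of 7 that passed (median 0.74) with H2-DMa at a log2 ratio of 2.06 and H2-DMb1 at 2.80. In the 30 gated members alone H2-DMa stood at 151 CPM, against 29.2 CPM in the 131 cells. Monocyte genes are not compared here, because Ccr2 and Ly6c2 chose the 131 cells and most members fail that gate. Ciita had 0 UMIs in the 131 cells, so its ratio was at least 4.57 on the log2 scale with the floor of 3 UMIs. Itgax differed by 2.77 and the interferon-stimulated list by a median of 0.14, with 0 of 30 genes past the limit in either direction.

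Most of the 60 cells in neither gate carried UMIs of macrophage genes. Csf1r was in 59, Adgre1 in 55, Gpnmb in 38 and C1qb in 25 of them. Adgre1 was at 316 CPM, close to the 322 CPM of the Ccr2 and Ly6c2 gate and below the 537 CPM of other mutant cells. The summed level of the macrophage list was 5180 CPM in the 60 and 8379 CPM in other mutant cells. Ciita was found in 11 of the 60. They also held 21 of the 34 members with at least 0.5% class II UMIs and the highest single value (8.71%). High class II content was thus not limited to the cells that passed the Ccr7 gate or the Ccr2 and Ly6c2 gate. These gates count raw UMIs, so a cell outside them may still express Ccr2. Of the 60, 10 carried a Ccr2 UMI and 7 a Plac8 UMI, and the member at 8.71% had only 2376 UMIs in all.

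**Figure D3:**
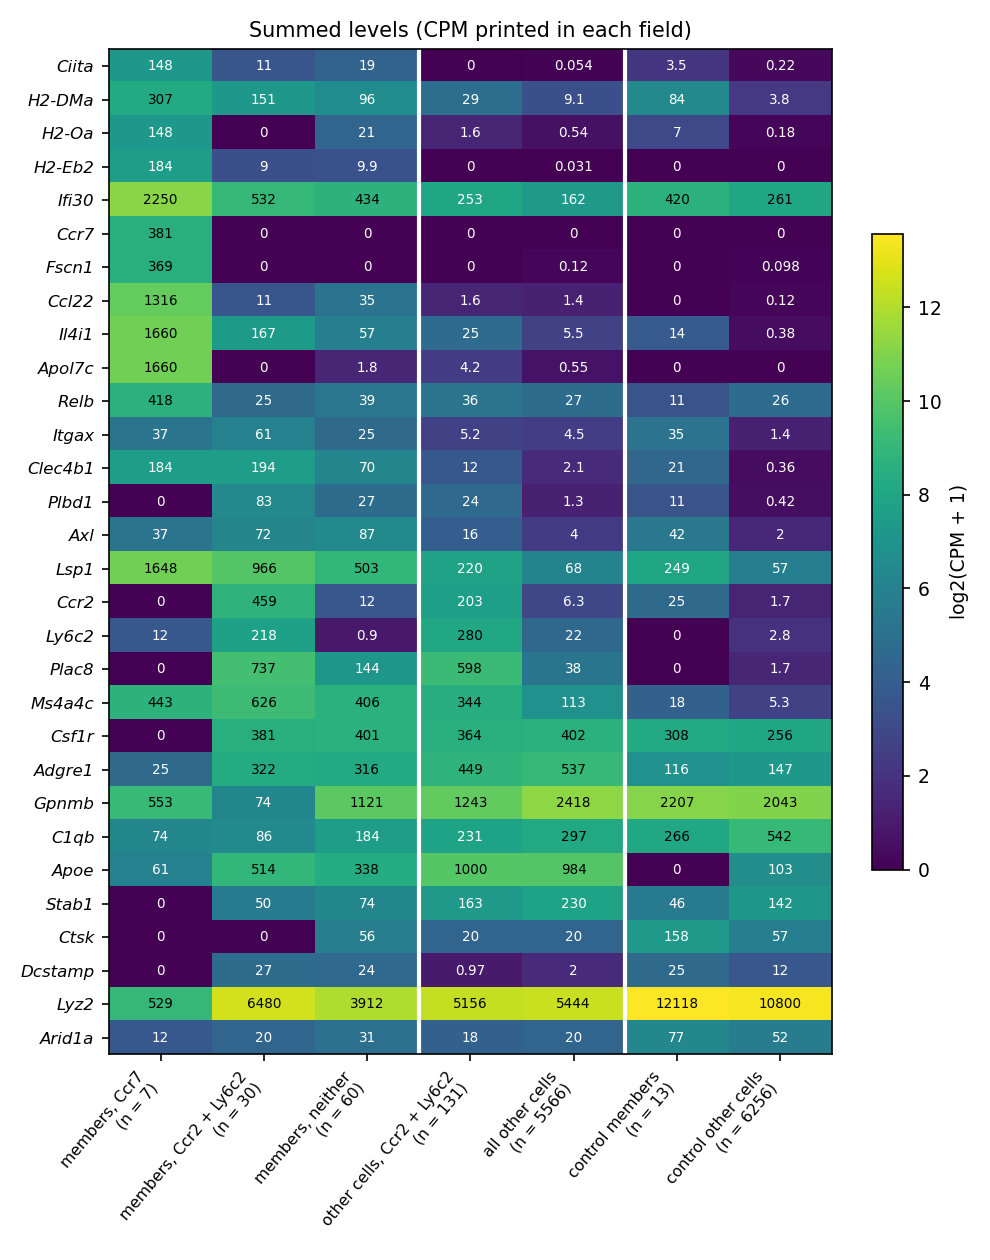
Summed level of 30 genes (rows) in 7 sets of cells (columns), coloured by log2(CPM + 1) with the CPM printed in each field. The 131 other cells with Ccr2 and Ly6c2 are part of the 5566 other mutant cells. Ccr7, Fscn1 and Apol7c stand out in the 7 members of the first column, where Csf1r is 0, and Gpnmb is lowest in the second.

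Over all genes of the mutant library the 15 highest and the 15 lowest log2 ratios were read out. Highest was Apol7c (7.24, 6.81 to 7.67), which rested on the 7 Ccr7 cells and was at 1.21 without them. It was followed by Ccl22 (6.03, 5.71 to 6.35), Clec4b1, a C-type lectin (5.70, 5.42 to 5.98), Il1b, the pyrogenic cytokine (5.08, 4.65 to 5.50), Plbd1, a phospholipase B-like protein (4.93, 4.50 to 5.35) and Il4i1 (4.92, 4.72 to 5.13). Clec4b1 was the most widespread of these, with UMIs in 47 of 97 members. Ccl22 and Il1b each had many of their UMIs in 1 cell (30.5% and 27.9%) and stood at 5.51 and 4.62 without it. Without the 7 Ccr7 cells Ccl22 stood at 4.32 and Il4i1 at 4.01.

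Ccr2, Axl, Rnase6, Bcl2a1a, H2-DMa, Bcl2a1d, Ccl5, Ccnd2 and Lsp1 completed the 15. Axl, a receptor tyrosine kinase that binds Gas6, was at 80.5 and 3.98 CPM in members and others (4.34, 4.05 to 4.62) and in 51 members. Bcl2a1a and Bcl2a1d encode survival proteins and are near-identical copies, so how their reads were split is uncertain. Ccl5, a chemokine of T cells and macrophages, was at 1971 and 172 CPM (3.52, 3.46 to 3.57), but in 33 members only and with 30.9% of its UMIs in 1. Members with 997, 988 and 473 UMIs gave most of its UMIs, and its lowest ratio over the alternatives was 2.12. Ccnd2, a D-type cyclin, was at 58.0 and 5.39 CPM (3.43, 3.10 to 3.74), Rnase6, a secreted ribonuclease, at 73.8 and 4.66 CPM (3.99, 3.69 to 4.27), and Lsp1 at 685 and 67.8 CPM (3.34, 3.25 to 3.43) in 93 of 97 members. Lsp1 overlaps Prr33, and Il1b, Ccnd2 and Bcl2a1d also share their place with a gene of the opposite strand.

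Among the 15 lowest were Ngp, Lcn2 and Camp, granule genes of neutrophil precursors, and Chil3. With the 83 cells of at least 5% S100a8 and S100a9 transcripts removed from the others, Ngp stood at -1.77, Lcn2 at -0.60 and Chil3 at -2.67, and Camp gave no ratio because its remaining level lay under the floor. Marco, a scavenger receptor, had 0 UMIs in members and 58.0 CPM in others, at least 31.7-fold lower. Ccl7, a monocyte chemokine, was at 6.71 and 94.2 CPM (-3.81, -4.81 to -2.97).

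Of the rest of that group, Folr2, a folate receptor of resident macrophages (-2.42, -3.29 to -1.67), C1qa, a chain of complement C1q (-2.03, -2.47 to -1.62), and Stab1, a scavenger receptor (-1.86, -2.15 to -1.58), stood with Arg1 (-2.44), Pdpn (-1.98), Igfbp4 (-1.98), Xylt2 (-1.96), Lhfpl2 (-1.89) and Dmkn (-1.81). Arg1 had 15 UMIs in members, 66.7% of them in 1 cell. Of 17 listed macrophage genes 15 passed 20 CPM, 0 were higher and 5 lower past the limit, and 14 of the 15 had a ratio below 0 (median -0.72, -1.08 to -0.67 over the alternatives). Csf1r, at 376 and 402 CPM (-0.10, -0.22 to 0.02), was level, and its gene overlaps Hmgxb3 on the opposite strand.

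**Figure D4:**
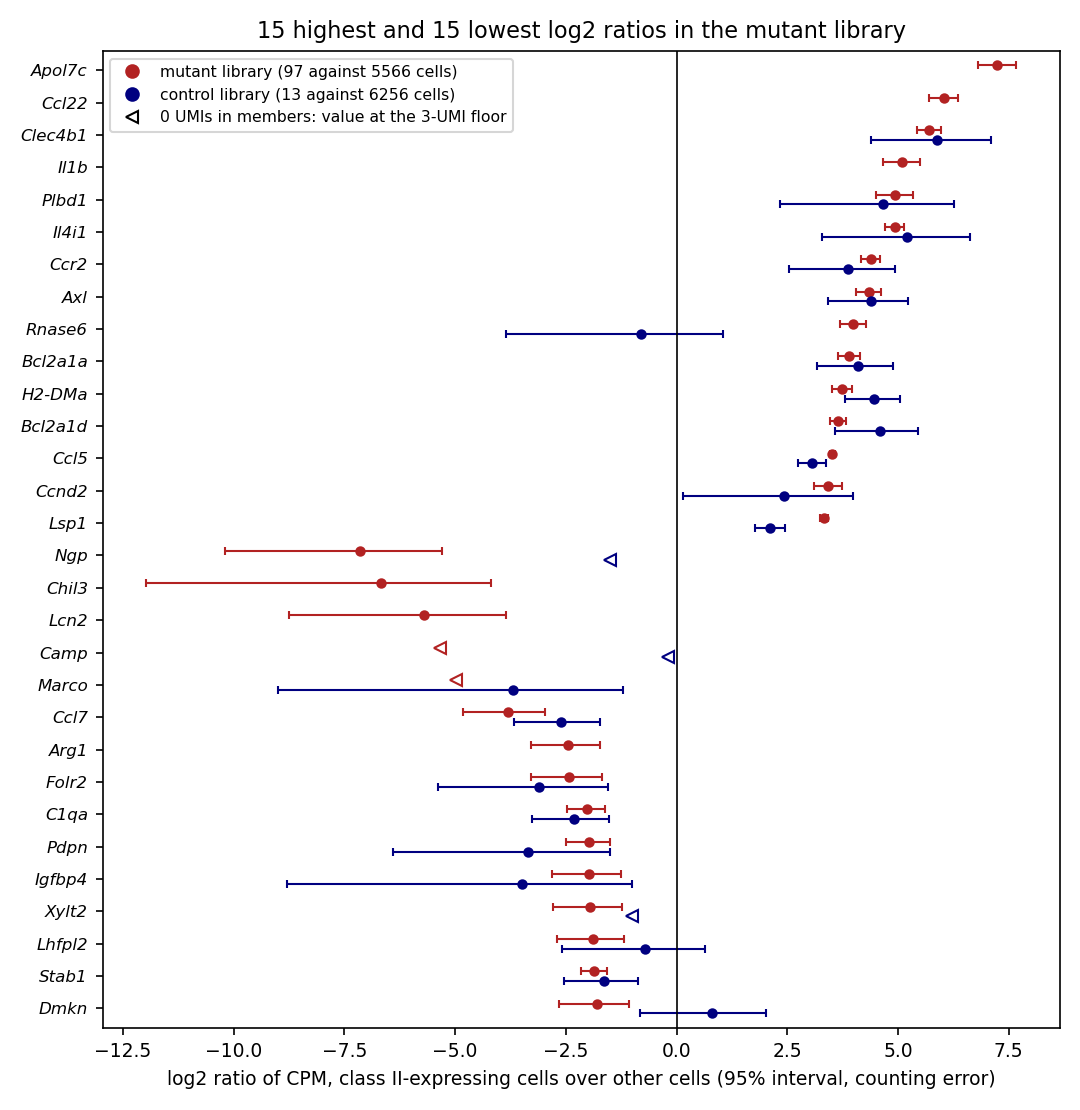
Log2 ratio of CPM, class II-expressing over other cells, with 95% intervals for counting error, for the 15 highest and 15 lowest genes of the mutant library, and the same genes in the control library. Open triangles are values at the floor of 3 UMIs, and Apol7c, Ccl22, Il1b, Chil3, Lcn2 and Arg1 have no control point because control members had 0 UMIs and the level of other control cells lay under that floor. Clec4b1, Il4i1 and Axl lie on the same side in both libraries, Rnase6 on opposite sides.

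Over all members OC genes gave no common direction. Of 14 listed, 6 passed the level and 0 differed past the limit (median 0.11, -0.83 to 0.16 over the alternatives). Ctsk, the collagenase of OCs, was at 37.8 and 20.3 CPM (0.90, 0.51 to 1.26), yet 50 of its 62 UMIs came from 1 member, which also held 53 UMIs of Acp5 and 17 of Mmp9, and without it the ratio was -1.44. Dcstamp, a fusion protein shared with dendritic cells, was the exception, at 23.8 and 2.03 CPM (3.55, 3.02 to 4.04) in 18 members, with a mean below the level that a gene needed to be counted. Tnfrsf11a, the RANKL receptor, was at 72.0 and 89.1 CPM (-0.31, -0.58 to -0.05). Between members of at least 0.5% and those below, 4 of 7 OC genes were lower past the limit and 0 higher (median -1.10). Of all 5066 genes, 5.45% were lower there. The summed level of the list was 210 CPM in the former, 475 CPM in the latter and 383 CPM in other mutant cells. The member with 50 Ctsk UMIs was among those below 0.5%.

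Genes by which antigen-presenting cells address T cells were detected in part. Cd86, a ligand of CD28, was at 110 and 31.0 CPM (1.83, 1.61 to 2.05) in 61 members, and Cd40, the receptor for T-cell help, at 21.4 and 4.35 CPM (2.29, 1.76 to 2.79) in 20. Cd80, the second CD28 ligand, had 11 UMIs (0.59, -0.42 to 1.44). Il12b, Il6, Il10 and Ccl17 had 0 UMIs in members. Of the dendritic cell list, 14 of 18 genes had a UMI, 4 passed 20 CPM, 2 were higher and 0 lower past the limit (median 1.77, and 0.36 without the 7 Ccr7 cells). Flt3, Zbtb46, Xcr1, Clec9a, Cd209a and Clec10a, which define its lineages, had 0 to 2 UMIs each. Itgax was at 35.4 and 4.49 CPM (2.98, 2.56 to 3.37) in 35 members.

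Cytokine receptors differed by ligand. Of 20 listed, 16 passed, 4 were higher past the limit and 0 lower. Beside Ccr2 these were Ccr1 (2.12, 1.89 to 2.35), Ifngr1 (1.09, 0.94 to 1.24), a chain of the interferon gamma receptor at 215 and 101 CPM, and Csf2rb (1.04, 0.85 to 1.22), the shared chain of the GM-CSF receptor. Ifngr2 was at 0.41 (0.22 to 0.59). Ifng itself had 0 UMIs in both libraries among kept cells.

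Interferon-responsive genes leaned upward in members against all other mutant cells, where 2.66% of 5231 genes were higher past the limit. Of 30 interferon-stimulated genes, all passed, 6 were higher past the limit and 0 lower (median 0.54), among them Ly6a, at 2984 and 1170 CPM (1.35, 1.31 to 1.39), and Rsad2 (1.37, 1.22 to 1.52), which was at 0.85 without 1 cell. Of 18 interferon gamma-responsive genes 11 passed and 4 were higher (median 0.67), with Gbp2, a guanylate-binding protein, at 163 and 42.5 CPM (1.94, 1.76 to 2.12). Class I presentation had 3 of 15 higher (median 0.64): H2-Q6 and H2-Q7, which are near copies and uncertain, and Psmb9, an immunoproteasome subunit (1.22, 1.07 to 1.36). B2m, the class I light chain, was at 4717 and 3517 CPM (0.42, 0.39 to 0.46). Between members of at least 0.5% and those below, the medians of these 3 lists were 0.01, -0.07 and 0.34. Against the 131 other cells with Ccr2 and Ly6c2, the lists had 0 of 30, 0 of 12 and 0 of 15 genes past the limit in either direction. Their medians there were 0.14, 0.15 and 0.27.

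Most defining markers of B cells and plasmacytoid dendritic cells had few or 0 UMIs in members. Of 10 B cell genes, 3 had a UMI in mutant members, and Pax5, Cd79a, Ebf1 and Igkc were among those with 0. Ms4a1 had 4 UMIs in 1 Ccr7 cell, and Cd79b had 16 UMIs in 8 members, 3 of them Ccr7 cells. The rest of the UMIs of this list lay in 1 gene not named here. The summed level of the list was 25.0 CPM in members and 3.11 CPM in others, and 79 of 97 members had none of it. It was 135 CPM in the Ccr7 cells, 36.0 CPM in the Ccr2 and Ly6c2 gate and 12.6 CPM in members of neither gate. The 131 other cells with Ccr2 and Ly6c2 stood at 22.7 CPM. Of the plasmacytoid list, Siglech had 4 UMIs in 1 member with 31 UMIs of Plac8, and Spib, also used by that lineage, had 10 UMIs in 6 members. The member with Siglech passed the Ccr2 and Ly6c2 gate and had 5699 UMIs in all. It held 2 UMIs of Ciita, 1 of Spib and 0 of Csf1r and Adgre1. The plasmacytoid list reached 2808 CPM in it, against a per-cell median of 123 CPM over mutant members. The summed level of this list was 146 CPM in members and 119 CPM in others, most of it Lair1, an inhibitory receptor of many leukocytes, at 117 and 116 CPM. The T and NK cell list had a UMI for 1 of 10 genes, and the mast cell list for 0 of 7. The part of such cells in the results was not tested further.

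In a pair of lists that belong to the state of the cell, cycling genes (16 of 16) and BAF subunits (14 of 14, median -0.09) all lay within the limit. Of the cycling genes 13 had a ratio below 0 and 3 above (median -0.28, -0.67 to -0.22 over the alternatives). Their summed level was 1485 CPM in mutant members, 283 CPM in the 7 Ccr7 cells among them and 1804 CPM in other mutant cells. In control members 3 of 16 were lower past the limit and 0 higher (median -0.74). Arid1a (chr4:133406304-133484080) was at 26.8 CPM (44 UMIs) in mutant members and 20.3 CPM in other mutant cells (0.40, -0.06 to 0.83), and at 77.1 CPM (22 UMIs) and 51.8 CPM in the control (0.57, -0.10 to 1.17). Members of the mutant library thus were at a log2 ratio of -1.52 (-2.29 to -0.71) to those of the control, beside -1.35 (-1.41 to -1.29) for the other cells. Only the 3′ end is read, so transcripts of a recombined allele are counted as well. Lyz2 was at 4440 and 5444 CPM in mutant members and others, and at 12118.5 and 10800 CPM in the control.

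The control members offered a second, small view. In them 2.98% of 4973 genes were higher than in other control cells past the limit and 4.18% lower (7.16% in either direction). H2-DMa was at 84.1 and 3.82 CPM (4.46), H2-DMb1 at 147 and 8.87 CPM (4.05), Axl at 42.0 and 2.00 CPM (4.39) and Itgax at 35.0 and 1.38 CPM (4.67). Clec4b1 and Il4i1 had log2 ratios of 5.89 and 5.21 on 6 and 4 UMIs, whereas Rnase6 stood at -0.80 (-3.84 to 1.06). Ccr2 had 7 UMIs in 3 of the 13 cells, 1 of which passed the gate, Plac8 and Ly6c2 had 0, and Ciita had 1. Ccr7, Fscn1, Ccl22 and Apol7c had 0 UMIs in 285432, each of which allows up to 10.5 CPM. Gpnmb was at 2207 and 2043 CPM, and 2 of the cells carried 25 and 20 UMIs of Ctsk.

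Members of the mutant library were last compared with those of the control. Here 10.1% of 5044 genes were higher in the mutant past the limit and 5.17% lower, and among the other cells of the libraries 5.58% of 5214 were higher and 1.13% lower. The control members held only 285432 UMIs, against 163333403 in the other control cells. Ratios between members thus carry far more counting error, and these shares cannot be compared directly. Of the class II transcripts, H2-Aa was at 1385 and 722 CPM in mutant and control members (0.94, 0.73 to 1.15), H2-Ab1 at 949 and 543 CPM (0.80, 0.57 to 1.05), H2-Eb1 at 1406 and 718 CPM (0.97, 0.76 to 1.18) and Cd74 at 3150 and 3451 CPM (-0.13, -0.23 to -0.03). A single control cell, the highest in class II, gave 78 of 206, 61 of 155, 91 of 205 and 285 of 985 of the control UMIs of these genes in turn, and without it their ratios were 1.56, 1.46, 1.75 and 0.29. These genes chose the cells, so the values are a description. Interferon-stimulated genes were higher in 25 of 30 (median 1.72) between members and in 27 of 29 (median 2.06) between other cells. The monocyte list was higher in 4 of 7 (median 2.43), and in 2 of 5 (median 0.41) between other cells. Control members had 0 UMIs for 9 of its 14 genes, among them Plac8 and Ly6c2, whose ratios are bounds at the floor of 3 UMIs. The median between members is that of Ccr2, on 7 control UMIs, so the list describes few counts.

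Among the 1947 genes with at least 20 UMIs in both member sets, the highest were Ccl5 (2.69, 2.39 to 3.02), Lst1, a leukocyte transcript (2.64, 2.18 to 3.15), Ly6a (2.30, 2.08 to 2.53), Fabp5, a fatty acid-binding protein (2.20, 1.76 to 2.67), and Lgmn, the asparaginyl endopeptidase (2.13, 1.61 to 2.71). In the other cells the same genes stood at 2.24, 1.90, 4.50, 0.35 and 2.08. The lowest were Uchl1, a ubiquitin hydrolase (-2.86, -3.31 to -2.41), Cd207, the lectin langerin (-2.70, -3.44 to -1.96), Pgf, a growth factor of the VEGF family (-2.52, -3.23 to -1.81), Acsl1, an acyl-CoA synthetase (-2.14, -2.66 to -1.61), and Timp2, a metalloproteinase inhibitor (-2.06, -2.64 to -1.47). Cd207 rested on 3 of the 13 control members, 1 of which gave 20 of 35 UMIs, and Pgf on 5, 1 of which gave 25 of 36. The control UMIs of Ccl5 lay in cells with 65, 21 and 1. Mutant cells with 997, 988 and 473 gave most of its mutant UMIs. In the other cells these 5 stood at -2.56, -1.99, 0.21, -0.57 and -1.43.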

How the data were processed

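The authors aligned droplet-based 3′ libraries with Cell Ranger 6.1.0 to GRCm39, per the labels, and deposited filtered matrices of raw UMI counts over 32544 genes for 6455 control and 5865 mutant barcodes. Whether an aggregation step came before these counts and whether counting used the strand are not given in the sources used here. Members and gene lists were chosen with earlier results of these data known. Of the 316 listed symbols, 2 were not matched in the gene table, and some listed genes are not reported here.

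Barcodes with at least 500 genes and at most 10% mitochondrial UMIs were kept. UMIs were summed over the cells of a set and expressed as CPM of all its UMIs. Levels carry exact Poisson intervals, shares exact binomial (Clopper-Pearson) intervals and log2 ratios exact conditional binomial intervals, all at 95%, and describe counting error alone. Cells of 1 library are not replicates, so no test was run. A gene was counted when its mean over both sets reached 20 CPM, and as different past a log2 ratio of 1. The 4 class II genes of the rule, S100a8 and S100a9 stayed out of these counts and of the highest and lowest genes. Where a set had 0 UMIs, a floor of 3 UMIs over the set gave a bound. Named were the 15 highest and 15 lowest genes against other mutant cells (mitochondrial genes left out), the 5 highest and 5 lowest between member sets with at least 20 UMIs in each, and the genes of the lists by role. The Ccr7 gate and the Ccr2 and Ly6c2 gate were added after values had been seen. Doublets were kept, and scored against simulated pairs (2000 variable genes, 30 components, 50 neighbours, 0.8% per 1000 barcodes). Shares of cells were also taken after thinning each cell to 5000 UMIs. The intervals and ratios were checked on simulated data.

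Gene positions are those of GRCm39 (GENCODE), in which 31977 gene IDs were found. Python 3.11.15 with numpy 2.4.6, scipy 1.17.1, pandas 2.3.3 and scikit-learn 1.9.0 was used, and edgeR 4.0.16 in R 4.3.3 for TMM factors in one alternative. Alternatives changed the class II, S100, gene and mitochondrial limits, doublets, totals, cell weights and the CPM minimum.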

Additional observations from a re-analysis of the deposited data

Results flagged for a closer look

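In 3 of the named genes the difference between class II-expressing cells and the other cells of their library had opposite signs in the mutant and the control library, with both counting intervals off 0. Rnase6 also had opposite signs, but its control interval spanned 0. Pgf stood at a log2 ratio of -1.30 in the mutant and 1.42 (0.91 to 1.89) in the control, where 25 of 36 UMIs came from 1 cell. Acsl1 stood at -0.57 in the mutant and 1.00 (0.59 to 1.37) in the control. Lyz2 stood at -0.29 in the mutant and 0.17 (0.12 to 0.21) in the control. With 1 library per genotype these differences between the libraries were not tested.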

How the results depend on the processing

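No paired analysis was possible because each genotype was 1 library. Limits of 20 UMIs and 0.2% on class II gave 0.971% of mutant cells as members, 195 genes lower in them and 562 lower than in control members. Limits of 50 UMIs and 0.5% gave 0.565% and 0.0798% in the mutant and control library, 299 genes higher and 460 lower against other mutant cells, and 796 higher and 725 lower against control members, with Timp2 at 0.093 in place of -2.06. A minimum mean of 5 CPM gave 302, 310, 1277 and 704 genes in that order, and no minimum 1259, 764, 1241 and 732. Totals that skipped mitochondrial genes and those of ribosomal proteins gave 429 lower against control members, equal weight per cell 164 lower against other cells, and thinning to 5000 UMIs a control share of 0.377%. Without the S100a8 and S100a9 cells, an alternative added after the data were seen, the neutrophil list stood at a median of 0.14 in place of -5.52. In these cases the cause was not tested, except that more genes enter below 20 CPM. Of 664 other values, 647 kept their sign and 526 stayed within their counting interval. The scaling alternatives moved the median of all genes by 0.09 or less. Without the control member highest in class II, also added later, Cd74 between member sets was at 0.29 in place of -0.13. Depth limits the small sets: a gene with 0 UMIs may stand at up to 10.5 CPM in the 13 control members and 36.9 CPM in the 7 Ccr7 cells.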
